A study of Mus musculus with 18 samples.

Results

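The NF-kB family and its feedback genes were taken as 10 of the 15698 named features in the deposited table, chosen by gene name. They are the transcription factor subunits Nfkb1, Nfkb2, Rel, Rela and Relb, the inhibitor Nfkbia, the nuclear IkB proteins Nfkbiz, Nfkbid and Bcl3, and the deubiquitinase Tnfaip3. All 10 names were found, each in 1 row. Messenger RNA had been measured by sequencing the 3′ ends of transcripts in 18 mouse libraries, in 6 groups of 3. The naive group was CD4+ T cells with the transgenic 5CC7 T cell receptor, as were the T cells of all 4 dose groups. The dose groups had been activated for 4 days on P13.9 cells loaded with the peptide pPCC at 0.01, 0.1, 1.0 or 10 µM. The last group was P13.9 alone, a single fibroblast line that served as the antigen-presenting cell. The series asked what differentiation follows from weak or strong receptor signals during activation. Whether libraries of a group are from different mice or cultures is not stated in the labels, and the age of the animals is not given in the sources used here.

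NF-kB dimers are held in the cytoplasm by IkB proteins. Signals from the T cell receptor, CD28 and receptors of the tumour necrosis factor family activate IkB kinase, which marks IkB for destruction and frees the dimers to enter the nucleus. In T cells Rel and Rela act in the canonical branch and Relb with Nfkb2 in the non-canonical branch, and several of the genes that NF-kB switches on, among them Nfkbia and Tnfaip3, shut the pathway down again.

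Depth set how finely each group could be read. The values are read counts divided by 1 factor per library, so the reads could be recovered. The naive libraries held 27789 to 97757 reads in named genes, P13.9 held 201627 to 352001 and the dose libraries held 156941 to 733009. A single read was therefore worth a normalized count of 2.17 to 6.55 in naive cells and of 0.168 to 0.872 elsewhere. Over genes, replicates correlated at 0.601 to 0.765 in the naive group and at 0.90 to 0.972 in the others. Of 8 T cell marker genes, all had reads in the naive group and at every dose. Their sum was 226.4 to 285.9 in naive cells and, by rising dose, 179.5 to 195.8, 282.5 to 326, 268.8 to 327.5 and 306.1 to 329.5. In P13.9 it was 2.65 to 7.35, and Cd3e was at 0 there. Of the 10 fibroblast genes, 7 were measured, and their sum was 445 to 511 in P13.9, 13.1 to 23.8 in naive cells and, by rising dose, 73.7 to 112, 18.9 to 33.1, 11.99 to 23.1 and 5.08 to 8.22. The sum of 7 myeloid and dendritic cell genes was 42.9 to 82.3 in the naive group and at most 8.11 in any other library, and of these genes Adgre1 and Itgax were at 0 in naive cells. Cd8a and Cd8b1 were at 0 in the naive group. The 4 B cell marker genes looked for were not among the named features, so they give no measure of B cells.

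Because 8 of the members stood highest in naive cells, the sequences before their start sites are shown for members with lower levels after activation that hold a match to the kB consensus motif, the 10-letter sequence bound by NF-kB dimers. Sequences and positions are from RefSeq for GRCm38.p6, the assembly also called mm10, read 5′ to 3′ along the gene. Matches on either strand are in capitals, and matches that overlap run together. A window is the 250 bases before a start site.
Rel, chr11:23770970-23771219, minus strand: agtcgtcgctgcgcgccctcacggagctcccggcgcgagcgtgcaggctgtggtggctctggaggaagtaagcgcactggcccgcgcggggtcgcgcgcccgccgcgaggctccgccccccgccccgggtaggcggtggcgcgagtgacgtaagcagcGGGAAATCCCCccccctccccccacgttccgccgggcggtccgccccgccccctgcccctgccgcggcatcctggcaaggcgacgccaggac
Nfkbia, chr12:55492648-55492897, minus strand: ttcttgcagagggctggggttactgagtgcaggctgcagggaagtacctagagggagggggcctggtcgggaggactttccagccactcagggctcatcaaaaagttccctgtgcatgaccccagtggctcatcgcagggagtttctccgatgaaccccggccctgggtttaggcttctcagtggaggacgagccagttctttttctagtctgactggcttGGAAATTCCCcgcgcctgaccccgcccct
Tnfaip3, chr10:19015411-19015660, minus strand: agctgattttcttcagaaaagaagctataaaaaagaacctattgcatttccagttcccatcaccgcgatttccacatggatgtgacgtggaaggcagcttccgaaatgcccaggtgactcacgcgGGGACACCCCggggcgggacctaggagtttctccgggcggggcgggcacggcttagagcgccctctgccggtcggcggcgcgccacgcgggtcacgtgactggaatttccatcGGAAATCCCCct
Nfkbid, chr7:30422170-30422199, plus strand, 30 bases: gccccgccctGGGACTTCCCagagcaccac
In Rel the overlapping matches GGGAAATCCC and GGAAATCCCC began 92 and 91 bases before the start. Nfkbia held GGAAATTCCC 29 bases before its start, and Tnfaip3 held GGGACACCCC at 125 bases and GGAAATCCCC at 12 bases. Nfkbid held GGGACTTCCC 226 bases and GGAATTCCCC 181 bases before the second of its 3 listed starts.

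Nfkb2, whose differences from naive cells did not pass the test, also held matches before each of its 3 listed starts, and 1 stretch is shown for comparison.
Nfkb2, chr19:46304688-46304717, plus strand, 30 bases: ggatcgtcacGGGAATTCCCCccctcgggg
In it GGGAATTCCC and GGAATTCCCC overlap. Rela and Bcl3 have windows without a match, as have the other listed starts of Tnfaip3 and Nfkbid. Nfkb1, Relb and Nfkbiz have no window in the table used here. In all, 5 of the 7 members with a window held a match in at least 1 window, beside 8.23% of all 27025 genes. Of their 12 windows 7 held a match, beside 7.25% of all 32851 windows. These matches describe the letters before the start sites and say nothing about binding in these cells.

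The first comparison asked how the family stood after activation, with naive cells as the control. The members Rel, Nfkbiz and Nfkbid met the minimum level for testing only through their naive values, so they had to differ and are left out of the counts. Of the other 7, at 10 µM 5 were lower than in naive cells by limma at an adjusted p below 0.05 and none was higher. Among the 5897 genes that likewise met the minimum without the naive libraries 22.7% were called lower, and the median log2 difference was -1.50 over the 7 members and 0.33 over those genes. At 0.01 µM 5 of the 7 were lower too, beside 17.7%, with medians of -1.34 and 0.36. Over all 7264 genes tested, 57.1% were called at 10 µM and 32.8% were called lower, and at 0.01 µM 49.4% and 27.7%, so a call by itself was common. Both comparisons share the 3 naive libraries. Scaling to total reads moved the median of all 7264 genes at 10 µM from -0.07 to 0.46 and the share of called genes that were higher from 42.6% to 59.9%, and at 0.01 µM from 0.03 to 0.60 and from 44.0% to 67.2%.

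**Figure D1:**
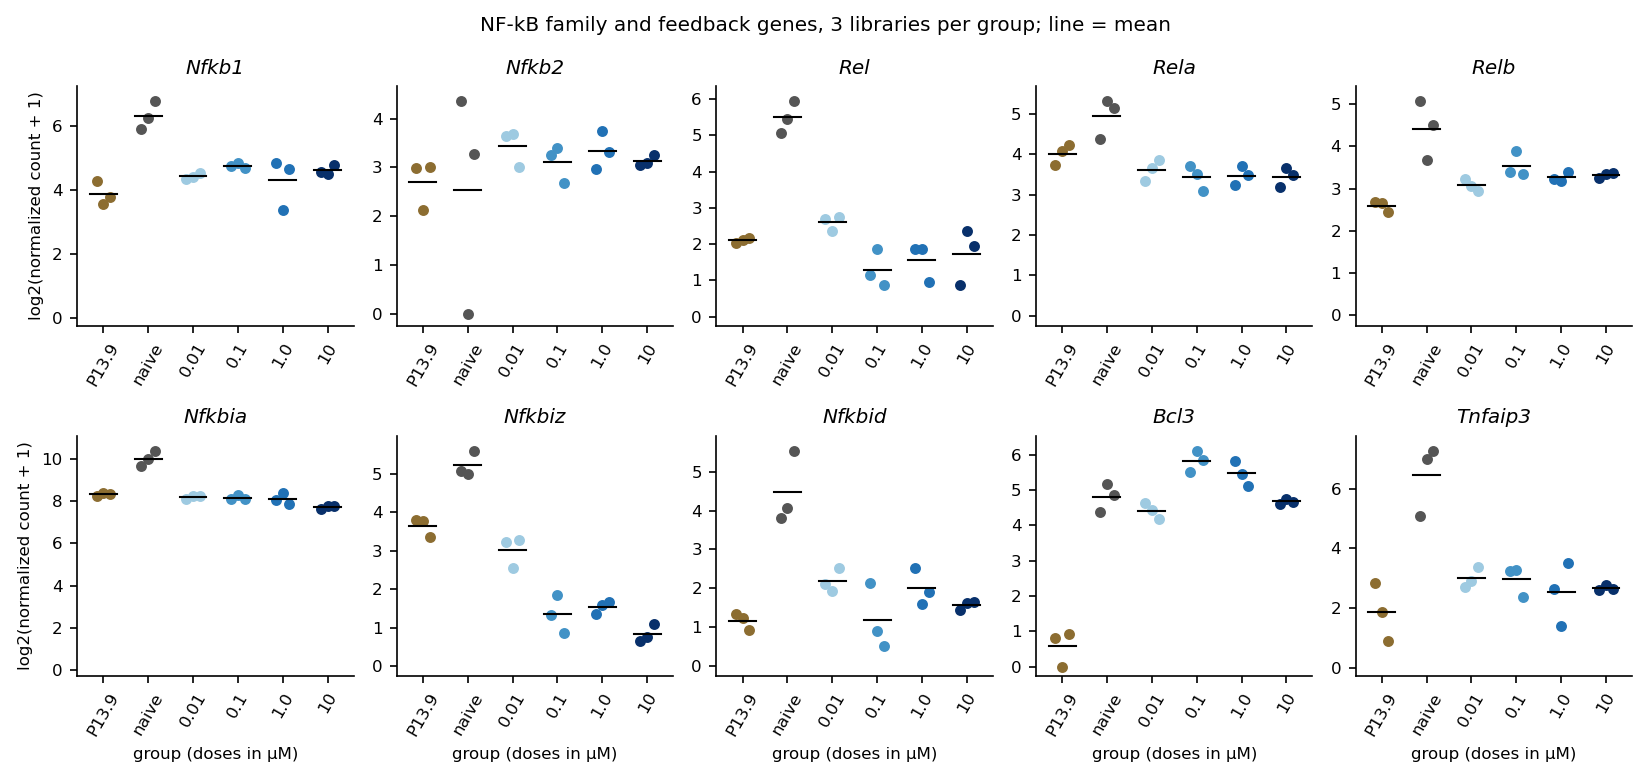
Normalized counts of the 10 genes on a log2(value + 1) scale (vertical axis) in the 6 groups (horizontal axis, doses in µM); points are libraries and the line is the mean of 3. The naive mean is highest in 8 panels; Bcl3 is highest at 0.1 µM, with a mean of 56.5, and near 0 in P13.9.

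Among the subunits, Nfkb1 encodes p105, the precursor of p50, and lies on chromosome 3 at 135584655 to 135691969. Its normalized counts were 59.0, 74.2 and 108 in the naive libraries. At 0.01 µM they were 19.4, 20.2 and 22.3, and at 0.1 µM 25.9, 27.9 and 24.4. All naive libraries lay above all activated ones. At 1.0 µM the counts were 27.8, 9.36 and 24.3, the middle library standing alone, at 10 µM they were 22.6, 21.6 and 26.4, and in P13.9 18.4, 10.7 and 12.8. The 0.1 µM libraries lay above those at 0.01 µM, and the other pairs of doses overlapped. Nfkb1 was 3.42-fold higher in naive cells than at 10 µM, a log2 difference of -1.69 ± 0.32 (limma adjusted p = 0.000364). The fall to 0.01 µM was by 1.87 ± 0.32 on the log2 scale (limma adjusted p = 0.000201). Scaled to total reads the differences were -1.05 and -1.21, and both still passed.

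Rel encodes c-Rel, a subunit prominent in lymphocytes, and lies on chromosome 11 at 23736847 to 23770969. It held 32.8, 42.9 and 60.6 in naive cells, from 5, 11 and 28 reads. The counts were 5.53, 4.17 and 5.74 at 0.01 µM, 1.22, 2.62 and 0.828 at 0.1 µM, and 2.62, 2.67 and 0.922 at 1.0 µM. At 10 µM they were 0.847, 4.11 and 2.87, and in P13.9 3.07, 3.34 and 3.53. Every naive library was well above every other library, and the 0.01 µM libraries lay above those of each higher dose. The naive level was 17.4-fold that at 10 µM, which is given as a description. Between 10 and 0.01 µM the difference of -0.88 ± 0.45 did not pass (limma adjusted p = 0.275), nor did that of -1.05 ± 0.45 between 1.0 and 0.01 µM (limma adjusted p = 0.241). Both passed with array weights (adjusted p = 0.015 and 0.0227) and only the groups compared (0.0347 and 0.0482). The second also passed with edgeR (0.0365). Neither passed with DESeq2 (0.123 and 0.0516), quantile rescaling, scaling to total reads or the P13.9 share subtracted.

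Rela encodes p65, the main activating subunit of the canonical branch, on chromosome 19 at 5637442 to 5648134. Naive libraries held 19.7, 39.0 and 34.7, from 3, 10 and 16 reads, and P13.9 held 12.3, 16.1 and 17.7. The 12 dose libraries ranged from 7.46 to 13.5, with dose means of 11.4 ± 2.23, 10.0 ± 2.40, 10.2 ± 1.82 and 10.0 ± 1.73 (SD, n = 3) from the lowest dose to the highest. Rela was thus higher in naive cells than at any dose, by 3.11-fold over 10 µM (log2 difference -1.50 ± 0.30, limma adjusted p = 0.000624), and the dose groups overlapped. Scaled to total reads the log2 difference was -0.89 (adjusted p = 0.0141).

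Relb, the partner of p52 in the non-canonical branch, lies on chromosome 7 at 19606217 to 19629438. Its naive counts of 32.8, 11.7 and 21.7 rested on 5, 3 and 10 reads. The doses gave 8.37, 7.42 and 6.75 at 0.01 µM, 9.45, 13.95 and 9.11 at 0.1 µM, 8.40, 8.02 and 9.53 at 1.0 µM and 8.47, 9.25 and 9.39 at 10 µM. The lowest naive library overlapped the 0.1 µM group. P13.9 was lowest, with 5.37, 5.35 and 4.42. Relb was 2.44-fold higher in naive cells than at 10 µM (log2 difference -1.09 ± 0.33, limma adjusted p = 0.0103), but the call was lost with edgeR on the recovered reads (log2 difference -0.49, adjusted p = 0.286) and with values scaled to total reads (-0.49, adjusted p = 0.231).

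Nfkb2, which encodes p100, the precursor of p52, lies on chromosome 19 at 46300994 to 46312400. The naive counts were 19.7, 0 and 8.66, from 3, 0 and 4 reads, and they covered the range of all other groups. At the doses it ran from 5.38 to 12.4 and in P13.9 from 3.34 to 7.07. Nfkb2 passed in none of the 7 comparisons by limma, although between 0.01 µM and P13.9 it passed with edgeR (log2 difference 1.05, adjusted p = 0.0124) and with array weights (0.91, adjusted p = 0.0168). Its difference from naive cells was 0.59 ± 0.75 at 10 µM (limma adjusted p = 0.522), too wide to place it with the falling subunits or apart from them.

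The inhibitor Nfkbia encodes IkB-alpha and is itself a target of NF-kB, on chromosome 12 at 55489409 to 55492647. It had the most reads of the members in each group, so its levels are the best measured. Naive libraries held 806, 1035 and 1319, from 123, 265 and 609 reads. The counts were 278, 304 and 302 at 0.01 µM, 273, 309 and 277 at 0.1 µM, and 261, 338 and 236 at 1.0 µM. At 10 µM they were 196, 215 and 221, below every other library, and in P13.9 306, 339 and 321. The groups from 0.01 to 1.0 µM overlapped. Naive cells exceeded 10 µM 5.00-fold (log2 difference -2.29 ± 0.17, limma adjusted p = 3.99e-08) and the fall to 0.01 µM was by 1.81 ± 0.17 (limma adjusted p = 6.15e-07). After quantile rescaling these differences were -1.45 and -0.69 and after scaling to total reads -1.64 and -1.14, and all 4 still passed.

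Among the nuclear IkB proteins, Nfkbiz encodes IkB-zeta, a cofactor of NF-kB on selected promoters, on chromosome 16 at 55811375 to 55838954. Its counts were 32.8, 31.2 and 47.6 in naive cells, from 5, 8 and 22 reads, and 13.0, 12.7 and 9.28 in P13.9. They were 8.37, 4.87 and 8.77 at 0.01 µM, 1.52, 2.62 and 0.828 at 0.1 µM and 1.58, 2.01 and 2.15 at 1.0 µM. At 10 µM they were 0.565, 0.685 and 1.15, from 2, 2 and 6 reads. Naive cells, P13.9 and 0.01 µM stood in that order with no overlap, and the 3 higher doses lay below them. The naive level was 46.5-fold that at 10 µM, which like the log2 difference of -2.21 between 0.01 µM and naive cells is given as a description.

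Nfkbid encodes IkB-NS, a nuclear IkB protein induced by T cell receptor signals, and lies on chromosome 7 at 30421731 to 30428749. Naive libraries held 13.1, 15.6 and 45.5, from 2, 4 and 21 reads. The counts were 3.35, 2.78 and 4.72 at 0.01 µM, 3.35, 0.872 and 0.414 at 0.1 µM, 4.72, 2.01 and 2.77 at 1.0 µM and 1.70, 2.06 and 2.11 at 10 µM, and 1.53, 1.34 and 0.884 in P13.9. The naive group lay above all others, one of its libraries far above the rest, and by rising dose the groups held 46, 13, 24 and 23 reads. The log2 difference between 10 µM and naive was -2.91, again a description. Without any 1 naive library the gene no longer met the minimum level and was not tested.

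Tnfaip3 encodes A20, which edits ubiquitin chains and turns off signals to IkB kinase, on chromosome 10 at 19000910 to 19015410. In naive cells it held 32.8, 125 and 152, from 5, 32 and 70 reads. It held 5.53, 6.49 and 9.45 at 0.01 µM, 8.54, 8.72 and 4.14 at 0.1 µM, 5.25, 1.67 and 10.5 at 1.0 µM and 5.08, 5.82 and 5.17 at 10 µM. P13.9 gave 6.14, 2.67 and 0.884. Even the lowest naive library stood above all others, and the doses and P13.9 overlapped. The naive level was 19.2-fold that at 10 µM (log2 difference -3.77 ± 0.56, limma adjusted p = 4.07e-05) and the fall to 0.01 µM was by 3.44 ± 0.56 (limma adjusted p = 0.000127).

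Bcl3, a nuclear IkB protein that binds p50 and p52 dimers, showed another order, on chromosome 7 at 19808462 to 19822824. Naive libraries held 19.7, 35.1 and 28.2, from 3, 9 and 13 reads. The counts were 23.9, 20.6 and 17.2 at 0.01 µM, 44.8, 68.0 and 56.7 at 0.1 µM, 56.2, 42.8 and 33.8 at 1.0 µM, and 23.4, 26.0 and 24.5 at 10 µM. The 0.1 µM group lay above naive cells, 0.01 µM and 10 µM without overlap, while 1.0 µM overlapped both 0.1 µM and naive cells. P13.9 held 0.767, 0 and 0.884, 3 reads in all, and the ratio of 10 µM to P13.9 was 41.5 with an exact 95% counting interval of 14.0 to 202. Against naive cells Bcl3 passed neither test, with -0.12 ± 0.25 at 10 µM (limma adjusted p = 0.691), a value whose sign turned to 0.38 after quantile rescaling, and -0.38 ± 0.25 at 0.01 µM (limma adjusted p = 0.212), which turned to 0.15.

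In orders of group means, naive cells were highest for 8 of the 10 members, in 7 of them without overlap with the next group. Of all 8179 genes, 38.4% had their highest mean in naive cells and 18.9% had it without overlap, and the 3 members that met the minimum level only through naive cells are among the 7. Of the 50 pairs of neighbouring groups in these orders, 35 overlapped. In bulk libraries fewer cells of a type and less RNA per cell cannot be told apart. Beside the higher naive values stand the sum of the myeloid and dendritic genes given above, the 12.4% to 15.6% of naive reads that lay in unnamed features, against 1.94% to 5.36% elsewhere, and the lower naive depth. Their part in the differences from naive cells was not tested.

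**Figure D2:**
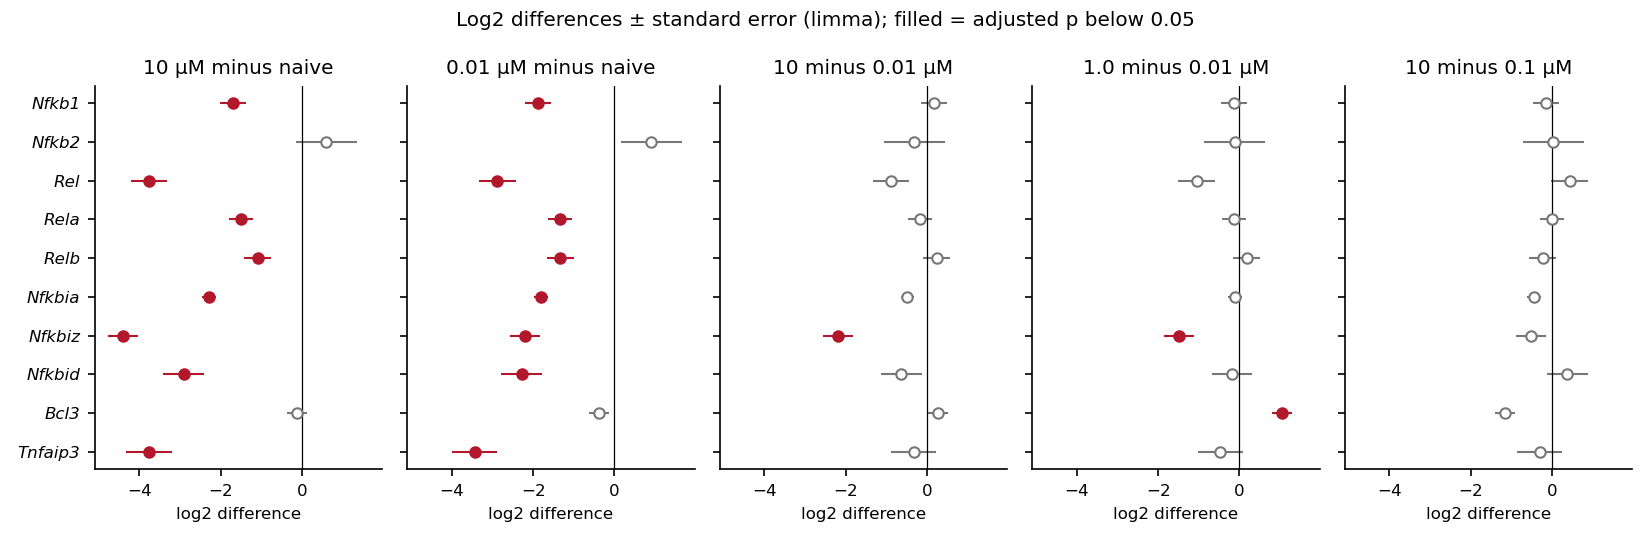
Log2 differences ± standard error from limma (horizontal axis) of the 10 genes (vertical axis) in 5 comparisons with n = 3 libraries per group; filled points passed an adjusted p of 0.05. The panels against naive cells hold 8 filled points each, all left of 0. In both, 3 of these, Rel, Nfkbiz and Nfkbid, met the minimum level only through their naive values and had to differ. Of the other 7, 5 are filled in each, beside 22.7% (10 µM) and 17.7% (0.01 µM) of comparable genes called lower. The panels between doses hold 1, 2 and 0.

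Few members passed between doses. In simulated data the naive libraries differed from the dose libraries only in depth, apart from changes set at 10 µM. The fit with these naive libraries recovered fewer changes between doses than the dose libraries alone. How far this holds for the real libraries was not tested. The comparison of 10 with 0.01 µM sets the strongest against the weakest signal, and 1 of the 10 members passed, Nfkbiz, beside 8.15% of all genes. Nfkbiz fell by 2.19 ± 0.37 on the log2 scale (limma adjusted p = 0.00191), from 7.34 ± 2.15 to 0.800 ± 0.309 (SD, n = 3), and the call held in each alternative, with a difference of -1.07 where the pseudocount was 5. Nfkbia was lower at 10 µM in 3 of 3 libraries, at 211 ± 12.8 against 294 ± 14.3, a difference of -0.48 ± 0.17 that did not pass (limma adjusted p = 0.109). It passed when the 12 dose libraries were fitted without the naive ones (adjusted p = 0.0163), with only the groups compared (0.00272), after quantile rescaling (0.00542) and with array weights (0.000309), but not with edgeR (0.0522), DESeq2 (0.0724), scaling to total reads (0.0539) or the P13.9 share subtracted (0.178). For Nfkb1, Nfkb2, Rela, Relb, Nfkbid, Bcl3 and Tnfaip3 the differences lay between -0.63 and 0.26. The groups did not overlap for 5 of the 10, Rel, Relb, Nfkbia, Nfkbiz and Nfkbid, beside 49.8% of all genes tested.

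Sample numbers in the labels fall into a run with 10 and 0.1 µM and another with the remaining groups. So 10 µM against 0.01 µM, against naive cells or against P13.9 crosses the runs, and run and group cannot be told apart there. Within a run, 1.0 against 0.01 µM gave 2 of 10 members, beside 4.30% of all genes. Nfkbiz fell by 1.49 ± 0.37 (limma adjusted p = 0.0328), and Bcl3 rose by 1.05 ± 0.25 (limma adjusted p = 0.0258), from 20.6 ± 3.37 to 44.3 ± 11.2 (SD, n = 3). The sum of the T cell markers was also lower at 0.01 µM (179.5 to 195.8) than at 1.0 µM (268.8 to 327.5). Its part in the rise of Bcl3 was not tested. Neither the Nfkbiz nor the Bcl3 call held throughout. The adjusted p of Nfkbiz was 0.068 to 0.16 without any 1 of the 6 libraries, and Bcl3 lost its call when a library of 0.01 µM was left out (adjusted p = 0.0646 without A, 0.121 without B, 0.144 without C) and when A (0.112) or B (0.0661) of 1.0 µM was.

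Within the other run, 10 against 0.1 µM, none of the 10 members passed in limma, beside 0.0964% of all genes, 7 of 7264. At an unadjusted p below 0.05 there were 371 genes, 2 of them members. Bcl3 gave -1.15 ± 0.25 (limma adjusted p = 0.125), with all 3 libraries at 10 µM below all 3 at 0.1 µM. This change passed with the 12 dose libraries alone (adjusted p = 0.00454), with edgeR on the recovered reads (adjusted p = 0.00139) and with DESeq2 (adjusted p = 0.000212), each of which called 1 member. Nfkbiz gave -0.52 ± 0.37 and Nfkbia -0.44 ± 0.17 in the same comparison (limma adjusted p = 1 and 0.742). Nfkbia, whose libraries did not overlap either, passed with array weights (adjusted p = 0.0454) and with only the groups compared (0.0391). It did not pass with the 12 dose libraries alone (0.129), edgeR (0.352) or DESeq2 (0.229).

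P13.9 RNA moved with the dose, and its part in each level can be set out. The P13.9 share of a library was taken as the median ratio of Col1a2, Sparc and Fn1 to their P13.9 means. Only these 3 of the 7 measured fibroblast genes reached an average of 20 in P13.9, and the others were left out. From the lowest dose to the highest this share was 29.4 ± 4.40%, 6.03 ± 0.922%, 3.79 ± 1.15% and 1.21 ± 0.284% (SD, n = 3). It was 3.17 ± 2.80% in naive cells, which had not met P13.9 as far as the labels say. The SD covers the spread between libraries and not the choice of genes. The sum of all 7 measured fibroblast genes had a mean of 468.5 in P13.9 and 94.2 at 0.01 µM, a smaller fraction than 29.4%. At 10 µM this sum had a mean of 6.73, a slightly larger fraction than 1.21%. Against 10 µM, 3 of the 10 members were called in P13.9 by limma, beside 42.0% of 8179 genes tested. Nfkbiz was higher in P13.9 by 2.82 ± 0.35 (limma adjusted p = 4.25e-06) and Nfkbia by 0.61 ± 0.16 (limma adjusted p = 0.00594), while Bcl3 was lower. The Nfkbia call was lost with edgeR (log2 difference 0.23, adjusted p = 0.26) and with scaling to total reads (adjusted p = 0.0912). Relb (-0.73 ± 0.32) and Nfkb1 (-0.74 ± 0.32) did not pass (limma adjusted p = 0.0715 and 0.0711). Both were called lower in P13.9 with edgeR (adjusted p = 0.00106 and 0.000403) and DESeq2 (0.00747 and 0.00567). Quantile rescaling, array weights, only the groups compared and scaling to total reads called them too. Between 0.01 µM and P13.9, 1 of the 10 passed, Bcl3, beside 25.1% of all genes, and its ratio was 36.0 with a counting interval of 12.2 to 176.

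Multiplied by the P13.9 level, that share would give 3.43 of the 7.34 of Nfkbiz at 0.01 µM, which is 46.7% of its level there. The corresponding parts were 39.6% for Rela, 32.1% for Nfkbia, 19.9% for Nfkb1, 19.7% for Relb, 18.9% for Rel, 16.7% for Nfkb2, 13.3% for Tnfaip3, 10.2% for Nfkbid and 0.785% for Bcl3. At 10 µM the part was 17.7% for Nfkbiz and at most 1.86% for the others. With the share subtracted, Nfkbiz still fell between 10 and 0.01 µM, by 1.82 on the log2 scale (limma adjusted p = 0.0335). Between 1.0 and 0.01 µM neither Nfkbiz nor Bcl3 passed after subtraction, with -1.22 for Nfkbiz (adjusted p = 0.189) and 0.63 for Bcl3 (adjusted p = 0.182). What was left of each dose library was also divided by its remaining share, which raised levels most at 0.01 µM. The part taken from Bcl3 there was only 0.785%, so its smaller difference came mainly from this division. The subtraction takes P13.9 cells in coculture to express each gene as P13.9 alone did, which was not tested. These parts and the subtraction also rest on the genes chosen for the share, and no other choice was tested.

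**Figure D3:**
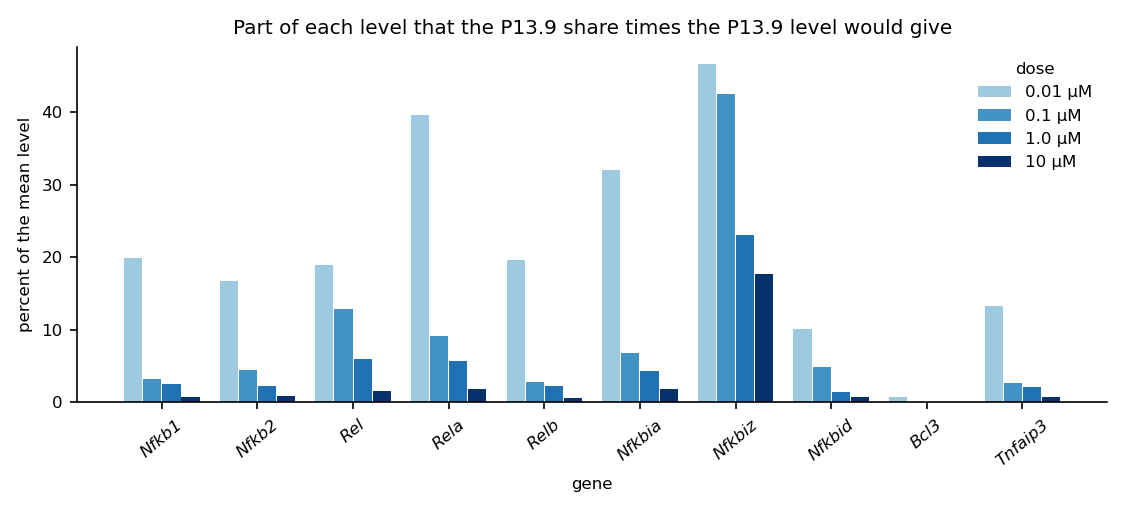
Bars give the part of each gene's mean level at a dose, in percent (vertical axis), that the P13.9 share of the libraries times the gene's level in P13.9 would give, for the 10 genes (horizontal axis) and 4 doses. The part is largest at 0.01 µM, at 46.7% for Nfkbiz, and below 1% at every dose for Bcl3.

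For the members with a mean of at least 20, the 3 genes with the closest pattern were sought among 1466 genes with such a mean, by Pearson r of log2 values over the 18 libraries. Bcl3 was closest to Ltb, which encodes lymphotoxin beta (r = 0.988), Fnbp1 (r = 0.975) and Tspan13 (r = 0.972), and over the 15 libraries without naive cells r was 0.99, 0.98 and 0.98. Ltb held 0.767, 0 and 0.884 in P13.9, from 3 reads, 45.9, 105 and 84.5 in naive cells and 65.3, 60.3 and 53.0 at 0.01 µM. It held 136, 146 and 128 at 0.1 µM, 158, 139.1 and 111 at 1.0 µM and 90.4, 106 and 97.1 at 10 µM. As in Bcl3, P13.9 was lowest and the libraries at 0.1 and 1.0 µM were above those at 0.01 and 10 µM. Ltb rose from 0.01 to 1.0 µM by 1.17 ± 0.24 (limma adjusted p = 0.012). The sum of the T cell markers was higher at 1.0 than at 0.01 µM too, and its part in this rise was not tested. These correlations share libraries and depth, and the low P13.9 values weigh on them.

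**Figure D4:**
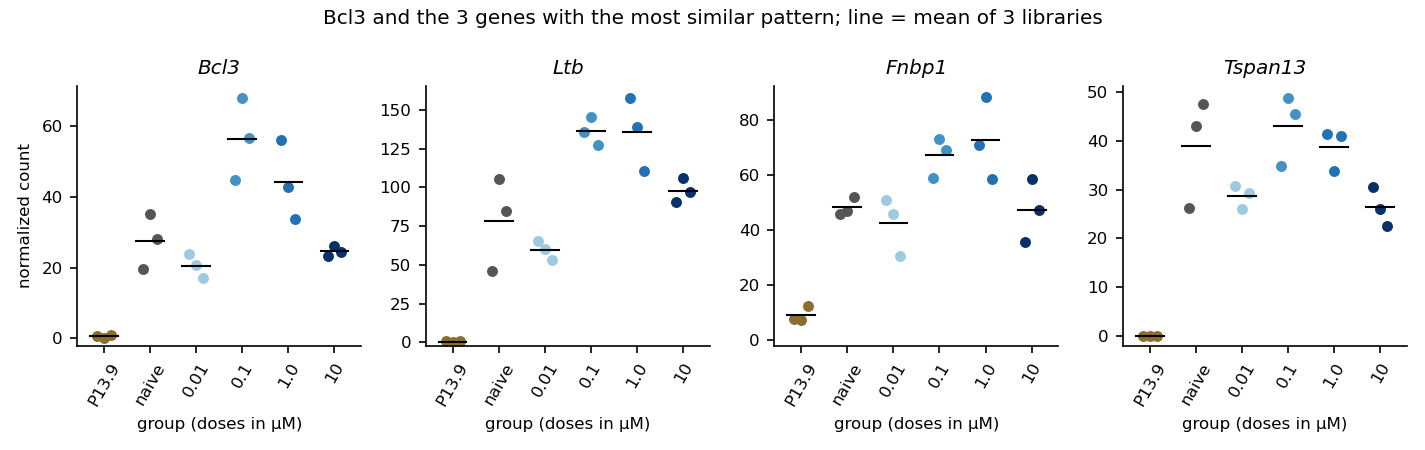
Normalized counts (vertical axes) of Bcl3 and of Ltb, Fnbp1 and Tspan13 in the 6 groups (horizontal axis, doses in µM); points are libraries and lines are means of 3. In all 4 panels the P13.9 mean is lowest, at 0.550 for Bcl3 and 9.13 for Fnbp1, and the means at 0.1 and 1.0 µM stand above those at 0.01 and 10 µM.

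The remaining 3 members above that mean followed the naive group. Nfkb1 and Tnfaip3 were near each other (r = 0.944 over 18 libraries, 0.78 over the 15 without naive cells). Nfkb1 was next closest to Ets1 (0.90) and Emb (0.891), and Tnfaip3 to Srgn (0.946) and Saraf (0.922). Without naive cells these values were 0.66, 0.65, 0.72 and 0.59. Nfkbia was closest to Klf6 (0.982), Rbm5 (0.979) and Ddx6 (0.978), with r of 0.77 to 0.80 when the naive libraries were left out. Klf6, a zinc finger transcription factor, held a mean of 290.5 in naive cells and 13.0 at 10 µM.

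Other genes of the pathway were counted in 4 lists. For comparison with naive cells, of the 5897 genes that met the minimum without the naive libraries, 1340 (22.7%) were lower at 10 µM and 1762 higher. Their median log2 difference was 0.33. At 0.01 µM 1042 (17.7%) of them were lower and 1571 higher, with a median of 0.36. Of the IkB kinase subunits and upstream adaptors, 18 of 22 were tested, 4 of them only because of their naive values. Of the other 14, at 10 µM 5 were lower than in naive cells, 1 was higher and 8 did not pass, with a median log2 difference of -0.70. Among those 4, Map3k14, the NF-kB-inducing kinase of the non-canonical branch, stood at 27.8 ± 2.97 in naive cells and 1.35 ± 0.334 at 10 µM (SD, n = 3). Malt1, the protease of the complex that links the T cell receptor to IkB kinase, stood at 13.2 ± 2.40 and 1.57 ± 0.559. Among the 14, Birc2, a ubiquitin ligase of tumour necrosis factor receptor signalling, fell by 2.51 ± 0.44 (limma adjusted p = 0.000182). At 0.01 µM 4 of the 14 were lower than in naive cells and 1 was higher. Between doses none of the 18 passed in any of the 3 comparisons, where at most 8.15% of all genes did. Prkcq, the protein kinase C isoform of T cells, was lower in P13.9 than at 10 µM, by 2.81 ± 0.38 (adjusted p = 8.47e-06), at 0.963 ± 1.01 against 11.5 ± 1.55.

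Of other inhibitors and deubiquitinases, 12 of 16 were tested against naive cells, 1 of them only because of its naive values. Of the other 11, at 10 µM 3 were lower, 2 were higher and 6 did not pass, beside 1340 lower and 1762 higher of the 5897 genes. Cyld, a deubiquitinase that restrains IkB kinase, fell by 1.56 ± 0.26 (limma adjusted p = 0.00011), from 51.1 ± 8.26 to 16.7 ± 2.01, and Tax1bp1, an adaptor of A20, fell by 2.41 ± 0.32 (adjusted p = 1.34e-05). Between 10 and 0.01 µM 1 of the 12 passed, Rnf11, beside 8.15% of all genes. Rnf11, which acts with A20, fell by 1.88 ± 0.34 (limma adjusted p = 0.00301), from 27.6 ± 6.55 to 7.18 ± 3.65. In P13.9 alone Rnf11 stood at 65.5 ± 13.3.

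Of receptors and ligands, 12 of 19 were tested against naive cells, 2 of them only because of their naive values. Of the other 10, at 10 µM 2 were lower, 1 was higher and 7 did not pass, beside 1340 lower and 1762 higher of the 5897 genes. Cd28, the main costimulatory receptor, fell by 1.92 ± 0.30 (limma adjusted p = 6.98e-05), from 80.7 ± 16.4 to 20.4 ± 2.80. Tnfrsf4, which encodes OX40, rose by 1.96 ± 0.47 (adjusted p = 0.00251), from 11.6 ± 8.78 to 37.1 ± 5.29. Cd40, a receptor of antigen-presenting cells, was tested only because of its level at 0.01 µM, 9.63 ± 3.42, and stood at 0.756 ± 0.412 at 10 µM, at 6.44 in P13.9 and at 0 in naive cells.

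Among 27 known targets, 20 were tested, 3 of them only because of their naive values. Of the other 17, at 10 µM 7 were lower than in naive cells, 3 were higher and 7 did not pass. Their median log2 difference was -0.27, and the 5897 genes gave 1340 lower and 1762 higher. At 0.01 µM 2 of the 17 were lower and 8 higher, with a median of 1.15, beside 1042 lower and 1571 higher of the 5897. Of the 20, 2 met the minimum only through the 0.01 µM libraries, so the counts and median there are partly fixed in advance. Between 10 and 0.01 µM, of the 18 that met the minimum without the 0.01 µM libraries, 5 were lower and 1 higher. Of all 7264 genes tested, 454 were lower and 138 higher. Cxcl2, a neutrophil chemokine, stood at 32.7 ± 2.41 in naive cells, 18.4 ± 1.63 in P13.9 and, by rising dose, 151 ± 17.7, 15.7 ± 5.92, 10.3 ± 3.48 and 3.74 ± 0.577 (SD, n = 3). Its fall from 0.01 to 10 µM was by 5.00 ± 0.28 on the log2 scale (limma adjusted p = 1.00e-07). Gadd45b, a stress response gene that was tested only because of its naive values, stood at 29.7 ± 9.71 in naive cells and 1.53 ± 0.665 at 10 µM. Irf1, an interferon regulatory factor, fell from naive cells to 0.01 µM by 1.79 ± 0.19 (adjusted p = 2.20e-06), from 103 ± 26.6 to 28.4 ± 2.08, and stood at 59.7 ± 6.23 at 10 µM. The fibroblast sum was highest among the dose groups at 0.01 µM, where Cxcl2, Cd40 and Rnf11 were also highest, and its part in these differences was not tested.

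**Figure D5:**
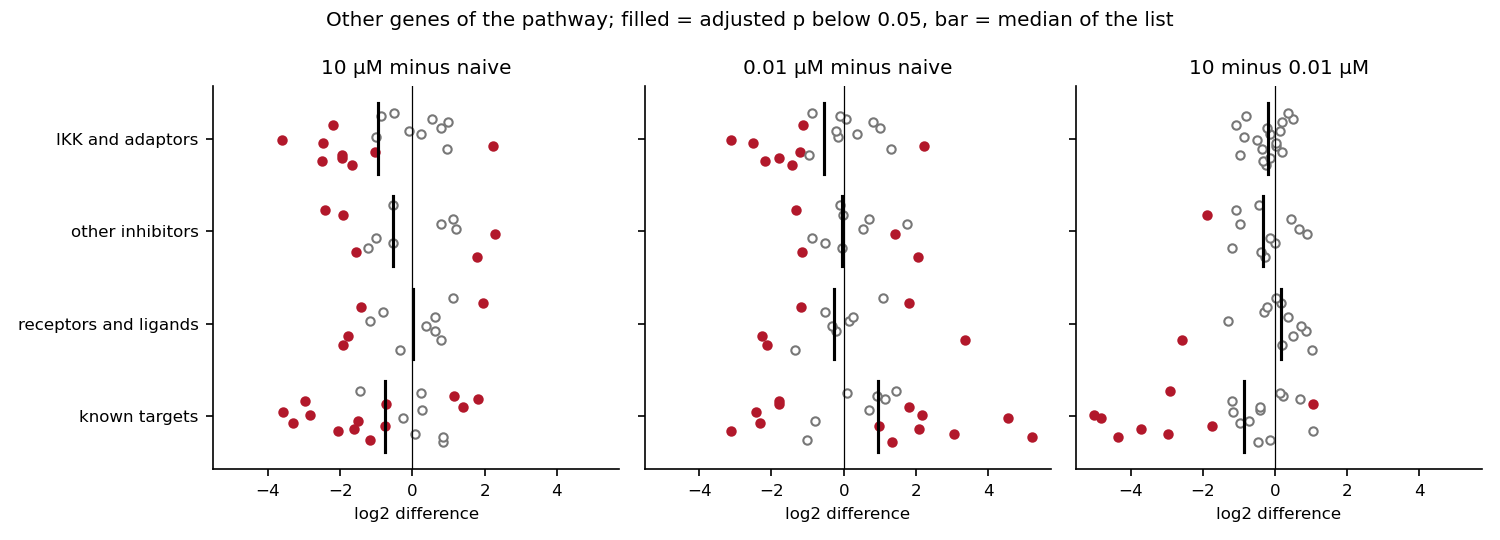
Log2 differences (horizontal axis) of the tested genes of 4 lists (vertical axis) in 3 comparisons; each point is a gene, filled points passed an adjusted p of 0.05 in limma and the bar is the median of the list, over all its tested genes. For IkB kinase and adaptors the median is -0.95 for 10 µM minus naive, with 4 genes in it that were tested only because of their naive values. Without these 4 it is -0.70. None of the 18 points is filled for 10 minus 0.01 µM.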

How the data were processed

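RNA was isolated with TRIzol and sequenced from Lexogen QuantSeq libraries, per the labels' protocols. STAR 2.6.1d, HTSeq 0.9.1, FastQC 0.11.8, DESeq2 and the mm10 build were used, per the submitters' processing notes. The strand setting is not given in the sources used here. The authors deposited 1 normalized signal per gene and library, scaled by median of ratios, per the file headers. Dividing by each library's step gave whole reads, within 1e-05 reads, for all but 1 of 284544 values, that of Tbx21 in a naive library. These totals lie far below the depth that the labels state. The 110 features without a name held 12.4% to 15.6% of naive reads and were left out.

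limma 3.58.1 in R 4.3.3 was run with lmFit and eBayes with a trend on log2(value + 1), a scale that understates changes of low genes. A gene was kept where 3 or more of the fitted libraries held 5 or more. The 15 T cell libraries gave 7264 genes and, for comparisons with P13.9, all 18 gave 8179. Benjamini-Hochberg adjustment ran over all genes tested, with a threshold of 0.05 for p-values. They measure only the spread between these libraries, which may be technical. Libraries of naive cells and P13.9 carry numbers in the table and letters in the labels, so they were mapped to groups only.

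Alternatives were a pseudocount of 5, no filter, quantile rescaling, array weights, fits of fewer libraries, and subtraction of the P13.9 share with the rest rescaled. Further ones were scaling to total reads, and edgeR 4.0.16 (TMM) and DESeq2 1.42.0 on the recovered reads. edgeR called 2528 genes between 10 and 0.01 µM, 111 between 10 and 0.1 µM, 1623 between 1.0 and 0.01 µM, 3990 and 3327 for 10 and 0.01 µM against naive cells, and 4770 and 3538 for P13.9 against 10 and 0.01 µM. Scaling to total reads and the 12 dose libraries without a block were added after seeing the data. The fit was tested on simulated data in which the groups shared mean and spread, apart from changes set at 10 µM. Each library kept its own depth. Estimates lay near the true changes and false calls were few. With the shallow naive libraries in the fit, fewer changed genes were recovered between doses than in the dose libraries alone. A missed call between doses therefore says little. Same-lettered libraries of different doses had correlations of deviations from -0.221 to 0.222, so letters were not taken to pair them.

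The members, lists and tests were chosen with earlier results of these data known. Named genes are the 10 members, called genes of each list (at most the 4 with the smallest adjusted p per comparison) and the 3 nearest genes of members with a mean of at least 20. List genes were mostly left unnamed where a group had at most 3 reads, and 1 other is not reported here.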

Additional observations from a re-analysis of the deposited data

How the results depend on the processing

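Of 358 values of the 23 called member changes under alternatives (and of Bcl3 between 10 and 0.1 µM), 328 kept direction and call, 24 lost the call, 6 gained it and 0 reversed. These include the differences of Rel, Nfkbiz and Nfkbid from naive cells, which had to differ, so their kept calls are no support. Nfkbid was not tested without any 1 naive library, and those fits are not among the values. The number of members called between 10 and 0.01 µM was 1, and 2 with quantile rescaling, 3 with array weights and 3 with only the groups compared. Between 10 and 0.1 µM it was 0, and 2 with array weights, 2 with only the groups compared, 1 with edgeR and 1 with DESeq2. Between 1.0 and 0.01 µM it was 2, and 3 with array weights, 0 with the P13.9 share subtracted, and 0 to 1 without any 1 library. Rel was the member added with array weights, and it also passed with only the groups compared and with edgeR. Between P13.9 and 10 µM it was 3, and 5 with quantile rescaling, 7 with array weights, 6 with only the groups compared, 5 with edgeR and 5 with DESeq2. Between 0.01 µM and P13.9 it was 1, and 2 with quantile rescaling, 7 with array weights, 4 with only the groups compared, 2 with total reads and 6 with edgeR. Against naive cells it stayed at 7 or 8 at 10 µM and 7 to 9 at 0.01 µM, with Rel, Nfkbiz and Nfkbid counted wherever tested. Relb lost its call against naive cells in 6 and 3 alternatives. The cause was not tested.

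With the replicate letter as a block (replicate block) in the 12 dose libraries, 2 members were called between 10 and 0.01 µM and 1 between 10 and 0.1 µM, and the same 12 libraries without the block gave 2 and 1. Over all genes the block gave 1912, 92 and 1330 calls for 10 against 0.01 µM, 10 against 0.1 µM and 1.0 against 0.01 µM, fewer than the 2067, 126 and 1450 of the same libraries without it. The fit of 15 libraries gave 592, 7 and 312. Letters share only a name here. No paired analysis was possible for naive cells and P13.9 because their columns carry no letters.

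Counts over all genes moved more. Those between doses rose to 3334, 274 and 2060 with array weights and fell to as few as 199, 1 and 72 without 1 library. For 10 and 0.01 µM against naive cells they ran from 3030 to 5690 and from 2348 to 5504, and with P13.9 from 2591 to 5008 and from 1283 to 4000. Low naive depth, where 1 read is worth up to 6.55, limits comparisons with naive cells.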
